A study of Rattus norvegicus with 21 samples.

Results

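NRF2, encoded by Nfe2l2, is the transcription factor through which cells answer oxidants and electrophiles. In resting cells its partner KEAP1 marks it for destruction, and electrophiles that modify KEAP1 let NRF2 build up, enter the nucleus and bind antioxidant response elements in DNA together with small MAF proteins. Its best known targets include Hmox1, the inducible heme oxygenase that breaks down heme, Nqo1, a quinone reductase that keeps quinones from redox cycling, and Gclc, the catalytic subunit of the enzyme that limits glutathione synthesis. Cells that make catecholamines, as PC12 cells do, also meet quinones from the oxidation of their own transmitter. NRF2 is controlled mainly through the stability of the protein, so the level of the Nfe2l2 transcript does not measure its activity.

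These 4 genes, out of 32883 in the count tables, were followed in PC12 cells, a line from a rat adrenal pheochromocytoma that the labels call a neuronal cell. They were chosen by Ensembl rat ID, before the version number: ENSRNOG00000001548 for Nfe2l2, ENSRNOG00000014117 for Hmox1, ENSRNOG00000012772 for Nqo1 and ENSRNOG00000006302 for Gclc. The tables list IDs without names, so the symbols are those given with the choice of the genes. For the same reason the labelled cell type was not checked against marker genes, and the other genes of the NRF2 pathway, listed by symbol, were not analysed here.

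The cells received vehicle, which the labels also call an untreated sample, or an extract of Jakyakgamcho-tang (JGT), a formula of peony and licorice root, made with water or with ethanol. Each extract was given at a low (4 µg/mL), medium (20 µg/mL) or high (100 µg/mL) dose. How long treatment lasted is not given in the sources used here. In each of the 7 groups there were 3 libraries of messenger RNA, 21 in all, and nothing in the labels says that they came from separate cultures, so p-values may reflect only technical spread among them. Every comparison with vehicle uses the same 3 vehicle libraries, and a difference of handling between vehicle and treated cells cannot be told apart from treatment.

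Libraries held between 8344416 and 28420922 expected counts. Ethanol medium replicates 2 and 3 and ethanol low replicate 1 stood apart: their genes deviated from the median of the libraries by a median of 0.207 to 0.34 log2 units in size, against 0.052 to 0.158 in the other 18, and their fragments were 178.7 to 202.5 bases long, against 205.3 to 240.8. Their totals were also lower, at 8344416 to 14918515 expected counts against 15005249 to 28420922. Results are therefore given with all 21 libraries and with the other 18. The 3 were picked by their deviation in these same data, so smaller SEs and p-values with 18 libraries follow in part from that choice. Leaving those 3 out leaves 1 ethanol medium library, which is then assumed to vary like the other groups. That library, ethanol medium replicate 1, deviated the most of the 18, by 0.158 log2 units, and held the fewest counts of them, 15005249.

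Windows around the gene start were searched for the response element. They are printed in part for the members whose window the RefSeq promoter table (GRCr8 assembly) holds, 3 of the 4. The core of the antioxidant response element was searched as TGACNNNGC, the AP-1 site, which shares its first letters, as TGANTCA, and the core of the dioxin response element, the site of the aryl hydrocarbon receptor that also controls Nqo1, as GCGTG. Both strands of 250 bases before and 50 after the gene start were searched. Of 33469 rat windows of that length, 12.1% held the antioxidant response element core, 7.33% the AP-1 site and 29.7% the dioxin response element core. The Nfe2l2 window held the antioxidant response element core at bases 39 to 47 after the start, and neither of the other motifs. The Nqo1 window held the dioxin response element core on the opposite strand, at bases -10 to -6, and the Gclc window held it as printed at bases -93 to -89. Neither the Nqo1 nor the Gclc window held the antioxidant response element core or the AP-1 site. A match is only a match of letters in this window, and elements farther from the start were not searched. Capitals mark the matches, the antioxidant response element core in the first sequence and the dioxin response element core in the others. The 30 bases printed for Nfe2l2 are the last of its window, up to base 50 after the start, and not the first after it.
Nfe2l2, 30 bases after the start, minus strand, chr3:81028950-81028979: actgctccgactagccatTGACGCCGCctc
Nqo1, 250 bases before the start, minus strand, chr19:52220268-52220517: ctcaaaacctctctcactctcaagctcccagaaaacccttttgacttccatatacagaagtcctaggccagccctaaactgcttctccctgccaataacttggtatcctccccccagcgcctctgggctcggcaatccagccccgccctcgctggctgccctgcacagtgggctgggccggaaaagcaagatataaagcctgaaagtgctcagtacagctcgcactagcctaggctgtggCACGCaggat
Gclc, 250 bases before the start, plus strand, chr8:87510226-87510475: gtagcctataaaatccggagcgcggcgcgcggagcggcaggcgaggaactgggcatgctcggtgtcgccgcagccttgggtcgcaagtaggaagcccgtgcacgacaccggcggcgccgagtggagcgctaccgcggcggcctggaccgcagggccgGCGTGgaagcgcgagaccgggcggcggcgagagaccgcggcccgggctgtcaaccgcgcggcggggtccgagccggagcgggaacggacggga

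Levels of the 4 genes can be set against each other only per length, as TPM (transcripts scaled per length and library), which the authors deposited. In vehicle Hmox1 stood at 810.7 ± 24.9 TPM (SD, n = 3), and only 180 of the 12221 genes with a mean of at least 1 TPM in vehicle had a higher mean. Nqo1 stood at 52.3 ± 2.93 TPM, Nfe2l2 at 51.5 ± 3.5 TPM and Gclc at 31.7 ± 4.63 TPM (SD, n = 3 each). The heme oxygenase transcript was thus abundant in PC12 cells before any extract was given, while the regulator and the other target enzymes stood lower, with 2844 to 4302 genes above them. Hmox1 was the highest and Gclc the lowest of the 4 in every one of the 21 libraries, as the plot of TPM by group shows.

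**Figure D1:**
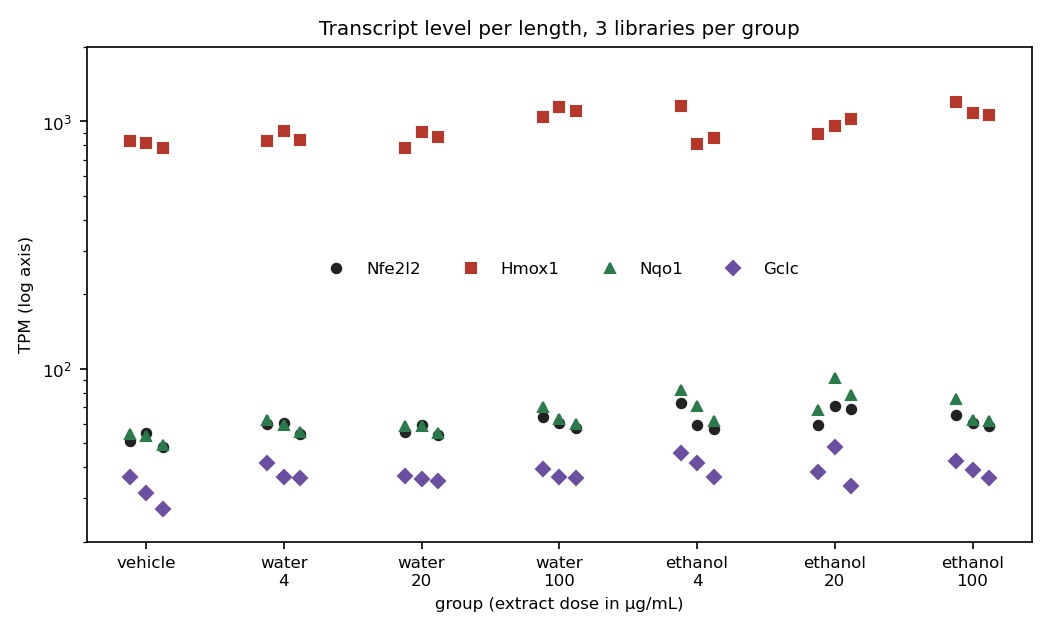
TPM per library (vertical log axis) for the 4 genes in the 7 groups, with the extract dose in µg/mL under each group name. Each point is 1 library, 3 per group, in replicate order. Hmox1 lies near 1000 TPM throughout, Nfe2l2 and Nqo1 lie close together and Gclc is the lowest.

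Changes between groups were read from counts per library size (CPM) scaled with TMM factors. Of the 4 genes, 2 differed among the 7 groups at an adjusted p under 0.05 by edgeR's quasi-likelihood test, against 5.48% of all 13550 genes tested. They were Hmox1 (adjusted p = 0.0221) and Nqo1 (adjusted p = 0.0415), while Nfe2l2 (adjusted p = 0.265) and Gclc (adjusted p = 0.362) did not pass. With 18 libraries all 4 passed, with adjusted p from 3.09e-06 for Hmox1 to 0.0129 for Gclc, but then 33.7% of all genes tested did so.

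**Figure D2:**
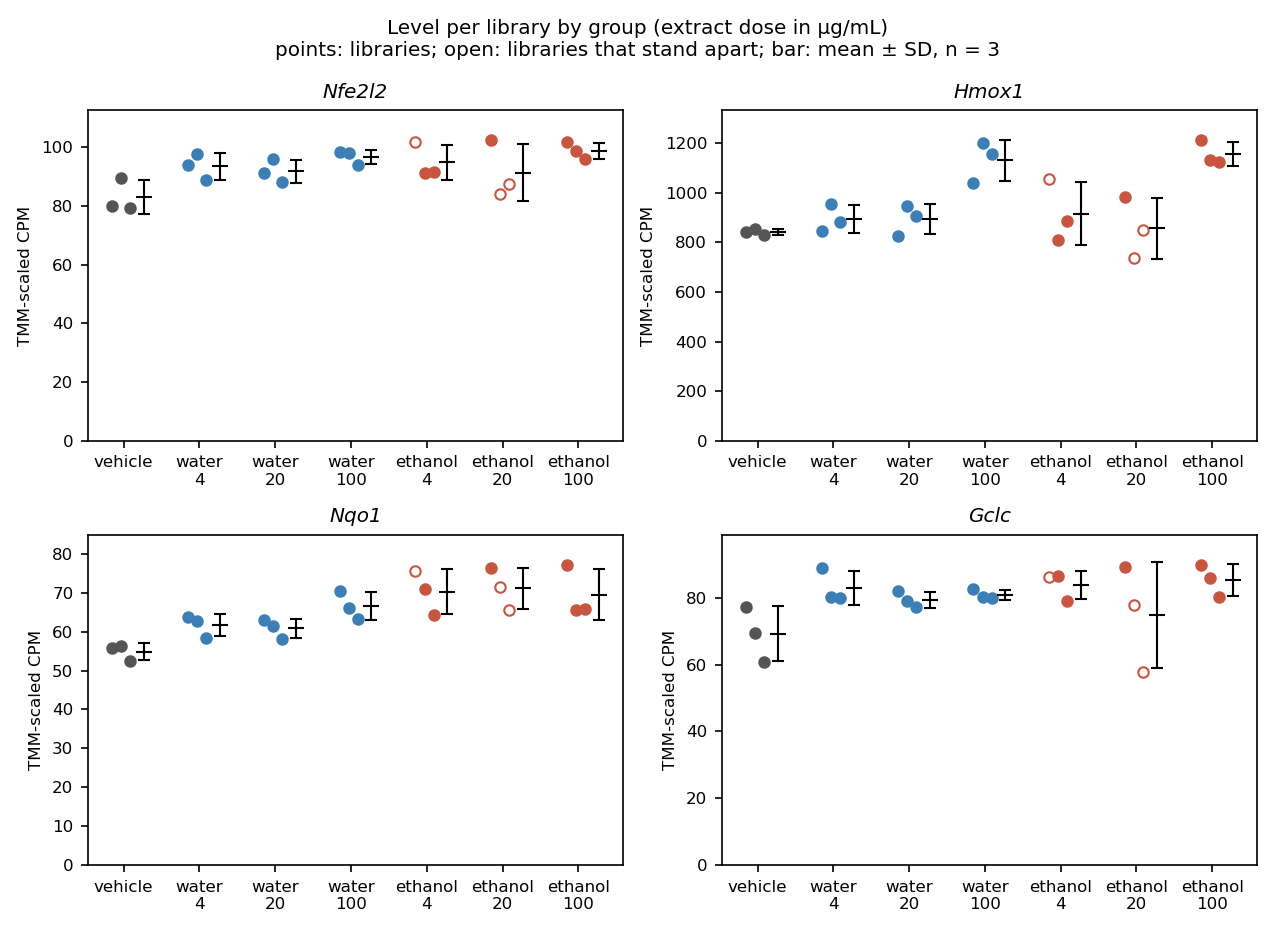
TMM-scaled CPM (vertical linear axes from 0) for the 4 genes in every library, by group, with the extract dose in µg/mL. Filled points are libraries, open points are the 3 libraries that stand apart, and bars are the mean ± SD of 3 libraries. Hmox1 is highest at 100 µg/mL of either extract, and the vehicle libraries have the lowest group mean in every panel.

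Nfe2l2, the regulator, had its lowest group mean in vehicle, but no comparison with vehicle passed by edgeR's main fit of all 21 libraries. The vehicle libraries stood at 80.1, 89.7 and 79.5 CPM. With water extract they stood at 94.1, 97.9 and 88.8 CPM at the low dose, 91.4, 95.9 and 88.1 CPM at the medium dose and 98.4, 98 and 94 CPM at the high dose. With ethanol extract they stood at 101.8, 91.3 and 91.7 CPM at the low dose, 102.4, 84.1 and 87.4 CPM at the medium dose and 101.7, 98.7 and 96.2 CPM at the high dose. Vehicle replicate 2 reached into the range of 3 treated groups, and 14 of the 18 treated libraries lay above all vehicle libraries. In the order of group means, from vehicle over ethanol medium, water medium, water low, ethanol low and water high to ethanol high, every group overlapped the next.

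The largest Nfe2l2 difference from vehicle with 21 libraries came with ethanol extract at the high dose: a log2 change of 0.25 ± 0.077 (SE), 1.19-fold (edgeR adjusted p = 0.079). With 18 libraries the change was the same size, 0.25 ± 0.0517 (SE), and passed (edgeR adjusted p = 0.0011). At the high dose of water extract the log2 change was 0.22 ± 0.077 (SE; edgeR adjusted p = 0.534), and the 18 libraries gave 0.22 ± 0.0514 (SE), which passed (edgeR adjusted p = 0.0157). The value at high ethanol also passed with 21 libraries in DESeq2 (adjusted p = 0.0277), with fragment length as a covariate in edgeR (adjusted p = 0.0429) and with library weights in limma-voom (adjusted p = 0.00137). Nfe2l2 also passed in the fit of 18 at low water, at 0.17 ± 0.0512 (SE; edgeR adjusted p = 0.0323), and at medium ethanol, at 0.30 ± 0.0737 (SE; edgeR adjusted p = 0.00342, from 1 ethanol library). For the regulator's transcript, the 2 fits thus gave the same small change at the high doses and differed in its SE.

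Hmox1, the heme oxygenase, was higher at the high dose of either extract than in the vehicle libraries, and overlapped vehicle at the lower doses. The vehicle libraries lay within a narrow range, at 840.9, 855.2 and 830.8 CPM. At the high dose the water libraries stood at 1041, 1200 and 1157 CPM and the ethanol libraries at 1212, 1135 and 1124 CPM. All 6 high-dose libraries lay above all 3 vehicle libraries, which was so for all 4 members and for 6.46% of the genes tested. The 3 high ethanol libraries alone did so for all 4 members and for 18.7% of genes, and the 3 high water libraries for all 4 members and 11.9% of genes.

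At the low dose the Hmox1 level was 846.9, 957.1 and 883.7 CPM with water extract and 1055, 809 and 885.8 CPM with ethanol extract. At the medium dose it was 826.9, 946.6 and 907.8 CPM with water extract and 984.4, 738.2 and 850.1 CPM with ethanol extract. These 4 groups all reached into or below the vehicle range. Of the 6 high-dose libraries, 5 lay above all 12 libraries of the lower doses. The exception, water high replicate 1 at 1041 CPM, was passed only by ethanol low replicate 1 at 1055 CPM, a library that stands apart, so no member had all 6 above all 12, against 0.0738% of the genes tested. Against the 9 lower-dose libraries that do not stand apart, all 6 high-dose libraries were higher, which held for 1 of the 4 members and for 0.148% of the genes tested.

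At the high dose of ethanol extract Hmox1 rose by a log2 change of 0.46 ± 0.102 (SE), 1.37-fold, from 842.3 ± 12.3 to 1157 ± 48 CPM (SD, n = 3 each), and passed (edgeR adjusted p = 0.015). The call was lost when vehicle replicate 1 or 3 or ethanol high replicate 1 or 2 was left out (edgeR adjusted p = 0.0665, 0.0733, 0.0769 and 0.0542), while the log2 change stayed between 0.42 and 0.48 over all alternatives. At the high dose of water extract the level was 1133 ± 82.4 CPM (SD, n = 3) and the log2 change 0.43 ± 0.102 (SE), 1.34-fold, with an edgeR adjusted p of 0.146. For the 18 libraries the same 2 changes had edgeR adjusted p of 6.79e-06 and 0.00015. The water value passed with DESeq2 as well. At medium ethanol Hmox1 differed from vehicle by 0.03 ± 0.102 (SE) with 21 libraries (edgeR adjusted p = 0.881) and by 0.23 ± 0.0839 (SE; edgeR adjusted p = 0.0472, from 1 ethanol library) with 18, and library weights in limma-voom gave -0.14.

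High and low doses were then compared with each other. The vehicle levels do not enter these differences, although the vehicle libraries contribute to the estimate of the spread. High minus low dose gave a log2 difference of 0.34 ± 0.102 (SE) for water extract, with an edgeR adjusted p of 1, and 0.34 ± 0.102 (SE) for ethanol extract, with an edgeR adjusted p of 0.673. None of the 4 genes passed in either comparison by edgeR, DESeq2 or unweighted limma-voom with 21 libraries, against 0% and 0.00738% of all genes called higher by edgeR. In each, 1 member, Hmox1, had an unadjusted p under 0.05, as did 3.65% of all genes for water and 4.8% for ethanol. With library weights in limma-voom Hmox1 passed in both (adjusted p = 0.0007 and 0.00055), against 0.472 and 0.391% of genes called higher. In the fit of only the water groups compared, the Hmox1 difference was 0.34 ± 0.065 (SE; edgeR adjusted p = 0.0899), and for the ethanol groups 0.34 ± 0.0963 (SE; edgeR adjusted p = 0.796). With 18 libraries Hmox1 passed in both, at 0.34 ± 0.0598 (SE; edgeR adjusted p = 0.0085) for water and 0.45 ± 0.0678 (SE; edgeR adjusted p = 0.000786) for ethanol, against 0.24% and 0.305% of all genes called higher. The ethanol value then rests on 2 low-dose libraries. The library left out, ethanol low replicate 1 at 1055 CPM, had the highest Hmox1 level of the lower doses. Averaged over the extracts, a comparison added after the data were seen, Hmox1 at the high dose exceeded the low dose by 0.34 ± 0.0721 (SE) with 21 libraries (edgeR adjusted p = 0.0989). There 0 members and 0.0369% of genes were called higher by edgeR, and 1 member and 5.25% of genes had an unadjusted p under 0.05. DESeq2 called 1 member and 0.236% of genes higher, and unweighted limma-voom 0 members. Without the vehicle and medium-dose libraries the average passed (edgeR adjusted p = 0.0343), against 0.277% of genes called higher. The 18 libraries, again with 2 for ethanol low, gave 0.39 ± 0.0452 (SE) with an edgeR adjusted p of 1.57e-05, against 0.938% of genes called higher. Nfe2l2, Nqo1 and Gclc passed in none of these dose comparisons with 21 or 18 libraries.

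Nqo1, the quinone reductase, was the member whose treated libraries lay apart from vehicle at every dose. Vehicle stood at 55.8, 56.4 and 52.5 CPM. With water extract the libraries stood at 63.8, 62.7 and 58.5 CPM at the low dose, 62.9, 61.5 and 58.3 CPM at the medium dose and 70.6, 66.1 and 63.3 CPM at the high dose. With ethanol extract they stood at 75.7, 71.1 and 64.3 CPM at the low dose, 76.3, 71.6 and 65.7 CPM at the medium dose and 77.2, 65.6 and 65.9 CPM at the high dose. All 18 treated libraries lay above all 3 vehicle libraries, which held for 1 of the 4 members and for 1.17% of the genes tested. Taking the medium water libraries alone, Nqo1 was the 1 member with all 3 above vehicle, against 8.71% of genes. In the order of group means, vehicle was separated from water medium, the next group, and each later group overlapped its neighbour up to ethanol medium, the highest.

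With ethanol extract Nqo1 passed against vehicle at each dose with 21 libraries. It rose by log2 changes of 0.35 ± 0.0828 (SE; edgeR adjusted p = 0.0277) at the low, 0.37 ± 0.0828 (SE; edgeR adjusted p = 0.0111) at the medium and 0.34 ± 0.0823 (SE; edgeR adjusted p = 0.0238) at the high dose, which is 1.28, 1.3 and 1.27-fold. The values thus show no step with dose, and high minus low dose was -0.01 ± 0.0826 (SE; edgeR adjusted p = 1). Without the libraries that stand apart the low-dose change was 0.30 ± 0.0703 (SE; edgeR adjusted p = 0.00851), from 2 ethanol libraries. The medium-dose change was then 0.48, from 1 ethanol library. At the high dose, still with 3 ethanol libraries, the change was 0.34 ± 0.063 (SE; edgeR adjusted p = 0.0004). The low-dose call was lost without any one of vehicle replicates 1, 2 and 3 and ethanol low replicates 1 and 2 (edgeR adjusted p from 0.0627 to 0.14), the medium-dose call without vehicle replicate 3 (edgeR adjusted p = 0.0546), and the high-dose call without any one of the vehicle replicates or ethanol high replicate 1 (edgeR adjusted p from 0.0569 to 0.162). With fragment length as a covariate and 21 libraries, and in fits of only the groups compared (edgeR adjusted p = 0.0643 and 0.34), the low and medium calls were lost as well. With fragment length and 18 libraries the low-dose value fell to 0.21 (edgeR adjusted p = 0.169).

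With water extract Nqo1 did not pass at any dose by edgeR's main fit of 21 libraries. Its log2 changes were 0.17 ± 0.0821, 0.15 ± 0.0822 and 0.28 ± 0.0822 (SE) at the low, medium and high dose, with edgeR adjusted p of 0.513, 1 and 0.335. The high dose passed with 18 libraries, at 0.28 ± 0.0627 (SE; edgeR adjusted p = 0.0121), and with library weights in limma-voom, at 0.27 (adjusted p = 0.0038). Averaged over the 6 treated groups, a comparison added after the data were seen, Nqo1 rose by 0.28 ± 0.0642 (SE; edgeR adjusted p = 0.0311), 1.21-fold. It was the 1 member that passed there, against 1.04% of genes called higher, and the call was lost without any single vehicle library (edgeR adjusted p from 0.115 to 0.249) and without water low replicate 1 (edgeR adjusted p = 0.0513). With 18 libraries all 4 members passed in that average, with log2 changes of 0.20 for Nfe2l2, 0.22 for Hmox1, 0.28 for Nqo1 and 0.27 for Gclc, against 8.61% of genes.

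Gclc, which makes the first and limiting step toward glutathione, was spread more widely in vehicle than the other 3, at 77.4, 69.4 and 60.9 CPM, a coefficient of variation of 11.9% against 1.46 to 6.89%. With water extract the libraries stood at 88.9, 80.3 and 80 CPM at the low dose, 82.1, 79 and 77.2 CPM at the medium dose and 82.5, 80.2 and 80 CPM at the high dose. With ethanol extract they stood at 86.2, 86.4 and 79.1 CPM at the low dose, 89.2, 77.9 and 57.7 CPM at the medium dose and 90, 85.9 and 80.3 CPM at the high dose. The value of 57.7 CPM, in a library that stands apart, was the lowest of all 21, and 16 of the 18 treated libraries lay above every vehicle library.

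No Gclc comparison with vehicle passed by edgeR's main fit of 21 libraries. The log2 changes were 0.26 ± 0.113, 0.20 ± 0.113 and 0.22 ± 0.113 (SE) for low, medium and high water extract, with edgeR adjusted p of 0.426, 1 and 0.792. For ethanol extract they were 0.28 ± 0.114, 0.11 ± 0.114 and 0.30 ± 0.113 (SE), with edgeR adjusted p of 0.208, 0.508 and 0.16. With 18 libraries Gclc passed at low water (edgeR adjusted p = 0.0122) and at low, medium and high ethanol (edgeR adjusted p = 0.0315, 0.00593 and 0.00225), and did not pass at high water (edgeR adjusted p = 0.0571). At medium ethanol the value itself moved, from 0.11 to 0.37 ± 0.0948 (SE), with 1 ethanol library left. Library weights in limma-voom, which keep all 21 libraries, passed Gclc at low water, high water, low ethanol and high ethanol (adjusted p = 0.00366, 0.0115, 0.00268 and 0.000623). Neighbouring groups in the order of its means overlapped throughout, with vehicle lowest and ethanol high highest.

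Counted by comparison with 21 libraries, the ethanol extract gave 1 member higher than vehicle at the low dose (Nqo1, against 1.61% of all genes), 1 at the medium dose (Nqo1, against 7.66%) and 2 at the high dose (Hmox1 and Nqo1, against 2.1%). The water extract gave 0 members by edgeR at the low, medium and high dose, against 0.229, 0.00738 and 0.0443% of all genes called higher. In these water comparisons 2, 0 and 3 members had an unadjusted p under 0.05, as did 9.92, 3.13 and 6.58% of all genes. DESeq2 called 0, 0 and 1 members higher, against 0.915, 0.0369 and 0.317% of genes, and unweighted limma-voom called 0 in each. With 18 libraries, 2, 0 and 3 members passed for low, medium and high water extract (against 5.15, 0.182 and 1.98% of genes) and 2, 4 and 4 for low, medium and high ethanol extract (against 4.78, 10.8 and 11.2%). The median log2 change of the 4 members at the high dose was 0.25 for water and 0.32 for ethanol. The medians over all genes tested were 0.0063 and 0.0032, which TMM scaling holds near 0, so they are no yardstick. Of the genes tested, 4.21 to 11.1% had a larger log2 change than the single members at high water, and 6.18 to 13.9% at high ethanol.

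**Figure D3:**
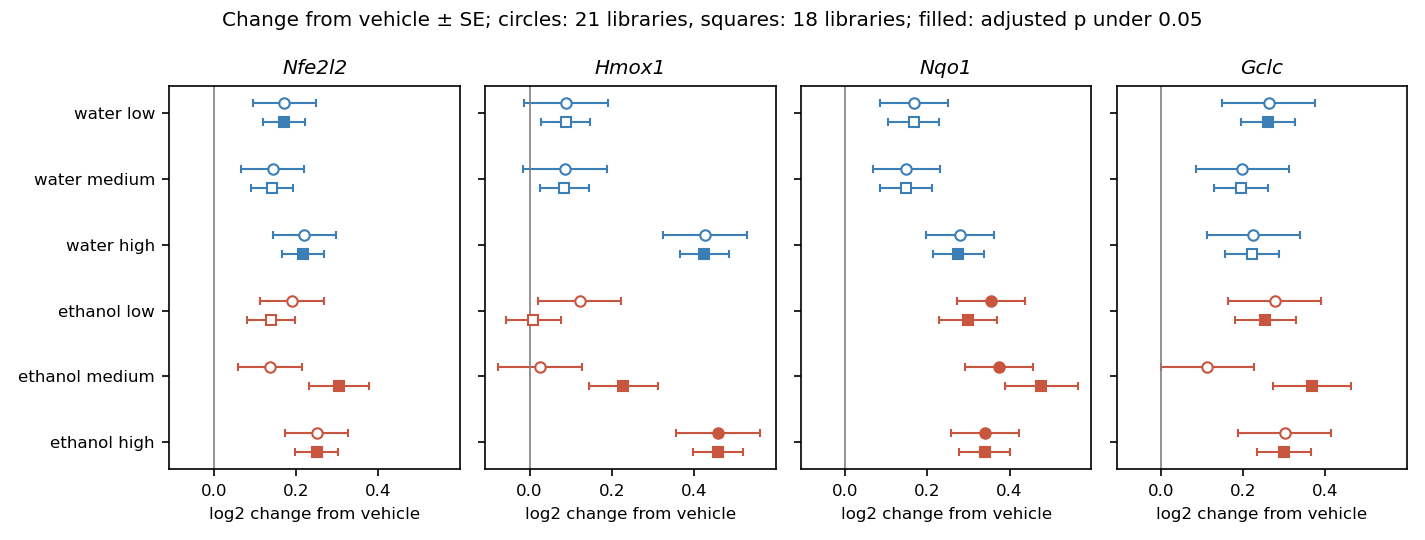
Log2 change from vehicle (horizontal axes) with its SE for the 4 genes and 6 treated groups. Circles are the fit of 21 libraries, squares the fit of 18, and filled symbols have an adjusted p under 0.05 by edgeR. The values of the water groups and of high ethanol hardly differ between the fits while their SEs shrink, and the values of medium ethanol move.

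For Hmox1 and Nfe2l2 the place of the medium ethanol libraries against vehicle differed between TPM and TMM-scaled CPM. Nqo1 lay above vehicle in both measures, and Gclc overlapped vehicle in both. In TPM the 3 medium ethanol libraries stood at 886.7, 954.3 and 1023 TPM for Hmox1, all above the vehicle libraries at 783.5 to 832.5 TPM, whereas in TMM-scaled CPM they spanned the vehicle range. For Nfe2l2 they stood at 59.4, 70.4 and 68.6 TPM against 48.2 to 55.1 TPM in vehicle, again without overlap, and without that separation in CPM. The 10 most abundant genes took 5.54 to 5.87% of counts in the 3 libraries that stand apart and 6.97 to 8.33% in the other 18. The part of this share in these values was not tested, nor that of the length correction in TPM.

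The water and ethanol extracts were then compared at matched doses, where the vehicle libraries contribute only to the estimate of the spread and to scaling. Over the 3 doses and their average, 16 differences between the extracts were tested for the 4 genes, each adjusted over all genes. At the high dose 0 members passed by edgeR, DESeq2 or limma-voom and 0 had an unadjusted p under 0.05, against 0.0221% of genes called higher, and 0 passed with 18 libraries, against 5.6%. The 0.0221% is the share by edgeR. DESeq2 and limma-voom called 0.561 and 0.0295% of genes higher at that dose, and 10.4% of genes had an unadjusted p under 0.05 by edgeR. The Hmox1 difference at the high dose, ethanol minus water, was 0.03 on the log2 scale with a 95% interval from -0.18 to 0.24, and with 18 libraries from -0.09 to 0.16. For Nfe2l2 the high-dose interval was -0.13 to 0.19, for Nqo1 -0.11 to 0.23 and for Gclc -0.16 to 0.31. Each interval includes 0 and also differences of 0.19 or more, so these values do not show that the extracts act alike.

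At the low dose 0 members passed by edgeR, DESeq2 or limma-voom, against 0.00738% of genes called higher by edgeR, and 1 (Nqo1) had an unadjusted p under 0.05, as did 5.35% of genes. At the medium dose 0 members passed by edgeR and limma-voom, against 4.46% of genes called higher by edgeR. Nqo1 alone passed with DESeq2, against 8.77% of genes called higher, and alone had an unadjusted p under 0.05, as did 30.5% of genes, so 1 of 4 members is near the background there. The Nqo1 difference was 0.19 (95% interval 0.01 to 0.36, edgeR adjusted p = 0.904) at the low dose and 0.23 (95% interval 0.05 to 0.40, edgeR adjusted p = 0.0837) at the medium dose. At both of these doses all 3 ethanol libraries lay above all 3 water libraries for Nqo1 and for none of the other 3 members, against 7.93 and 9.77% of the genes tested. With 18 libraries the medium-dose difference of Nqo1 was 0.33 ± 0.0891 (SE) and passed (edgeR adjusted p = 0.0104, from 1 ethanol library), against 6.85% of genes.

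No member had all 9 ethanol libraries above all 9 water libraries, against 0.376% of genes. Averaged over the doses the Nqo1 level under ethanol extract exceeded that under water extract by 0.16 ± 0.0475 (SE) on the log2 scale, 1.12-fold (edgeR adjusted p = 0.0435). It was the 1 member that passed, against 5.01% of genes called higher, so the share of members is based on a single gene. In the 18 libraries it was higher by 0.18 ± 0.043 (SE), with an edgeR adjusted p of 0.00472, against 8.95% of genes. The call was lost when any of 13 single libraries was left out (edgeR adjusted p from 0.0506 to 0.101), with no filter on low counts, with effective length offsets, with only the treated groups in the fit (edgeR adjusted p = 0.0685) and with fragment length as a covariate. The averaged difference was 0.01 for Nfe2l2 (95% interval -0.08 to 0.11), 0.0013 for Hmox1 (-0.12 to 0.12) and 0.0022 for Gclc (-0.13 to 0.14), with edgeR adjusted p from 0.871 to 0.994.

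**Figure D4:**
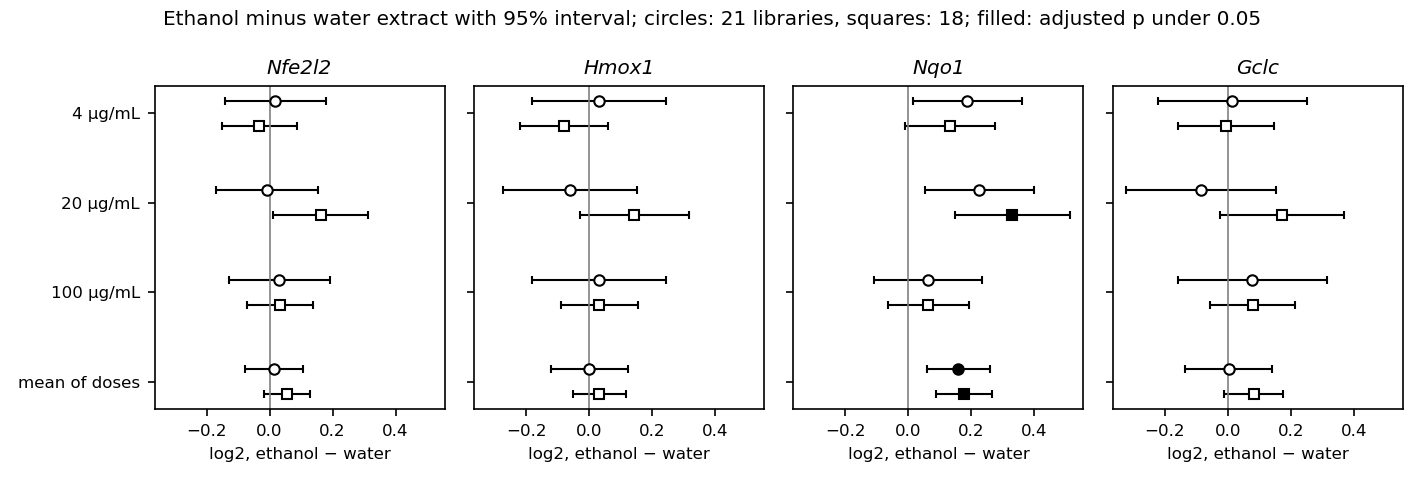
Log2 difference of ethanol minus water extract (horizontal axes) with its 95% interval, for the 4 genes at each dose and averaged over doses. Circles are the fit of 21 libraries, squares the fit of 18, and filled symbols have an adjusted p under 0.05 by edgeR. Nqo1 lies to the right of 0 at each dose. With 21 libraries its interval at the high dose spans 0, as do the intervals of the other genes.

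The gene whose log2 CPM followed each member most closely was sought among the 10322 genes averaging 5 CPM or more, by Pearson's r over the 21 libraries. These values describe libraries that share groups and depth, so no p is given, and the genes are known here by ID alone. For Nqo1 it was ENSRNOG00000032626.4 (r = 0.912), which stood at 294.7 CPM on average in vehicle and 471.7 CPM at the high dose of ethanol extract. For Gclc it was ENSRNOG00000013656.6 (r = 0.904), for Nfe2l2 ENSRNOG00000023991.2 (r = 0.873) and for Hmox1 ENSRNOG00000009117.5 (r = 0.849). The gene ranked 100 still had an r of 0.614 for Hmox1 and of 0.699 to 0.767 for the other members.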

How the data were processed

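The members, gene lists and tests were chosen with earlier results of these data known. Libraries were made from total RNA with a directional messenger RNA kit, per the labels' protocols. The authors deposited unnormalized expected counts per gene from RSEM, and TPM values, per the file headers, with RSEM 1.3.3 named in the submitters' processing notes. The genome build, annotation and strand setting are not given in the sources used here. The 4 members had whole counts in all 21 libraries, from 658 to 32179, so counting error was at most 3.9% of a value. Of 32883 IDs, 0 matched the RefSeq table of 47357 genes, so the pathway and marker lists fixed by symbol could not be applied.

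Expected counts were rounded. Tests were made first with edgeR 4.0.16 by quasi-likelihood (R 4.3.3, robust, default count filter, TMM), with 1 coefficient per group over 21 libraries and Benjamini-Hochberg adjustment over 13550 genes. SEs are the absolute log2 change divided by the square root of F. There were 12 directed comparisons, an overall test, and 2 comparisons added after the data were seen. The fits were also run on simulated data in which no library stood apart, and the rates of recovery are not given here. The text names the members and the single most similar ID of each. Alternatives were DESeq2 1.42.0, limma-voom (limma 3.58.1, with and without library weights), DESeq2 size factors, other count filters, effective length offsets, fragment length as a covariate, a replicate block, fits of only the groups compared, 18 libraries, and leaving out each library.

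Replicate numbers are not stated to pair cultures. For ethanol high and ethanol low all 3 same-numbered pairs deviated together (correlation of deviations over genes from 0.159 to 0.248), which was so for 1 of 21 pairs of groups. In that comparison the replicate block changed no call. No pair of replicates agreed within sampling noise (chi-square per degree of freedom of at least 3.06).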

Additional observations from a re-analysis of the deposited data

Results flagged for a closer look

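For Nqo1 the test of the difference between the 2 extracts passed with 21 libraries. Averaged over the doses, ethanol minus water was 0.16 ± 0.0475 (SE) on the log2 scale (edgeR adjusted p = 0.0435). Group means were higher with ethanol at each of the 3 doses. In that comparison 5.01% of all genes were called higher, and the Nqo1 call held in 12 of 30 alternatives.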

How the results depend on the processing

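Members were called higher or lower in counts that moved with the setting. With 18 libraries 2 members passed for low water, 3 for high water, 2 for low ethanol, 4 for medium ethanol, 4 for high ethanol, 1 for ethanol minus water at the medium dose, 1 each for high minus low dose within water, within ethanol and averaged, 4 for the treated average and 4 for the overall test. With fragment length as a covariate, the 18 libraries gave the same counts for low water, high water, high ethanol and the 3 dose comparisons. They called 4.96, 1.48 and 9.71% of all genes higher for low water, high water and high ethanol, and 0.138 to 0.829% in the dose comparisons. For low ethanol they gave 0 members, against 1.3% of genes called higher. The Nqo1 difference of ethanol minus water averaged over doses was then 0.13 and no longer passed. Comparisons that take in medium ethanol, this average among them, rest there on 1 ethanol medium library. With that covariate and 21 libraries the counts were 0 for low ethanol, 0 for medium ethanol and 0 for ethanol minus water averaged. In these, 1.24, 0.0812 and 0.0886% of all genes were called higher. The counts were 1 for any difference among the 7 groups, against 2.21% of genes called, and 3 for high ethanol, against 3.14% called higher. Library weights in limma-voom gave 2 for low water, 4 for high water, 2 for low ethanol, 4 for high ethanol, 1 for each of the 3 dose comparisons, 4 for the treated average and 4 overall. With these weights 6.72, 4.16, 8.58 and 11.8% of all genes were called higher for low water, high water, low ethanol and high ethanol, 10% in the treated average, 0.391 to 1.39% in the dose comparisons, and 55.2% were called in the overall test. Fits of only the groups compared gave 3 for low water, 3 for high water, 0 for low ethanol, 0 for medium ethanol, 4 for high ethanol, 0 for ethanol minus water averaged and 1 for high minus low averaged. There 6.36, 1.45, 0.525, 0 and 12.1% of genes were called higher for these 5 comparisons with vehicle, 3.12% for ethanol minus water averaged and 0.277% for high minus low. DESeq2 gave 3 for high ethanol (against 3.15% of genes called higher), 1 for high water, 1 for ethanol minus water at the medium dose, 2 for the treated average and 1 for high minus low averaged, against 0.317, 8.77, 2.3 and 0.236% of genes called higher. No filter on low counts and effective length offsets each gave 0 for ethanol minus water averaged, against 2.25 and 4.83% of genes called higher. Each gave 1 for any difference among the 7 groups, against 2.89 and 5.03% of genes called. Leaving out 1 library gave 0 to 2 members for high ethanol, 0 to 1 for low ethanol, medium ethanol, ethanol minus water averaged and high minus low averaged, 0 to 2 for the treated average and 0 to 4 overall. Shares over all genes are not given for the fits that left out 1 library, so those counts have no background here. The causes of these changes in the counts were not tested. Among the members' values, 41 calls in all were lost and 69 gained over these settings.

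Values that changed sign lay between -0.085 and 0.11 on the log2 scale with 21 libraries. The log2 values that changed sign with library weights in limma-voom were -0.14 for Hmox1 in ethanol medium minus vehicle, -0.0050 for Nfe2l2 and -0.071 for Hmox1 in ethanol minus water at low dose, -0.0068 for Hmox1 in ethanol minus water at high dose, -0.023 for Nfe2l2 and -0.10 for Hmox1 in ethanol minus water averaged over doses, 0.020 for Nqo1 in ethanol high minus ethanol low, 0.00014 for Gclc in high minus low averaged over both extracts. The log2 values that changed sign with 18 libraries were -0.032 for Nfe2l2 and -0.079 for Hmox1 and -0.0057 for Gclc in ethanol minus water at low dose, 0.16 for Nfe2l2 and 0.14 for Hmox1 and 0.17 for Gclc in ethanol minus water at medium dose, 0.040 for Nqo1 in ethanol high minus ethanol low, 0.0033 for Gclc in high minus low averaged over both extracts. The log2 values that changed sign with 18 libraries and fragment length as a covariate were -0.016 for Nfe2l2 and -0.011 for Hmox1 and -0.10 for Gclc in ethanol minus water at low dose, 0.17 for Nfe2l2 and 0.17 for Hmox1 and 0.13 for Gclc in ethanol minus water at medium dose, 0.096 for Nqo1 in ethanol high minus ethanol low, 0.020 for Gclc in high minus low averaged over both extracts. The log2 values that changed sign with fragment length as a covariate and 21 libraries were 0.056 for Nfe2l2 and 0.060 for Gclc in ethanol minus water at medium dose, -0.059 for Gclc in ethanol high minus ethanol low. The log2 values that changed sign with limma-voom were -0.0034 for Hmox1 and -0.0071 for Gclc in ethanol minus water averaged over doses. With no filter on low counts they were -0.0019 for Hmox1 and -0.00098 for Gclc in ethanol minus water averaged over doses. With effective length offsets they were -0.0030 for Hmox1 in ethanol minus water averaged over doses. With the replicate block they were -0.0012 for Hmox1 and -0.0021 for Gclc in ethanol minus water averaged over doses. Leaving out 1 library gave -0.016 to 0.068 for Gclc and -0.095 to 0.038 for Nqo1 in ethanol high minus ethanol low, -0.036 to 0.27 for Gclc and -0.086 to 0.12 for Hmox1 in ethanol medium minus vehicle, -0.012 to 0.067 for Gclc and -0.079 to 0.11 for Hmox1 and -0.031 to 0.052 for Nfe2l2 in ethanol minus water at low dose. It also gave -0.23 to 0.077 for Gclc and -0.17 to 0.040 for Hmox1 and -0.099 to 0.050 for Nfe2l2 in ethanol minus water at medium dose, -0.048 to 0.057 for Gclc and -0.036 to 0.035 for Hmox1 and -0.017 to 0.034 for Nfe2l2 in ethanol minus water averaged over doses, -0.027 to 0.019 for Gclc in high minus low averaged over both extracts. It further gave -0.064 to 0.014 for Gclc in water high minus water low, -0.026 to 0.075 for Hmox1 and -0.019 to 0.10 for Nqo1 in ethanol minus water at high dose.

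Replicate numbers were shared by the groups but paired the libraries in few comparisons: 11 of 63 same-numbered pairs had a correlation of deviations above 0.1, and 9 of 21 libraries correlated best with their own number. With the replicate block, ethanol minus water at the medium dose gave 1 member, Nqo1 (edgeR adjusted p = 0.0465), against 2.92% of genes called higher. No other member was gained or lost.

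The lowest count of a member was 658, a counting error of 3.9% of the value, and 3 libraries per group limit the precision.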
